A study of Mus musculus with 12 samples.

Results

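The genes described here encode the mammalian route to protoporphyrin IX and haem, as far as 9 listed members cover it: the enzymes Alas1, Alad, Uros, Urod, Cpox, Ppox and Fech, the mitochondrial carrier Slc25a38, and the mitochondrial chaperone Clpx. They were chosen by symbol, as the rows of the deposited table whose gene name was one of the 9, out of 54838 genes in the table. All 9 were found once each, all are annotated as protein-coding, and all 9 passed the filter on low counts that left 14643 genes for testing. The table covers RNA of 12 mouse liver libraries, with 4 libraries each of the groups DMH, DM and CTL. The labels name the tissue and these group codes but do not spell the codes out. The labels used here state no strain, age, sex, genotype, agent, dose or time, and do not tell whether replicate libraries stem from different mice. The p-values below therefore measure the spread between these libraries, which may be technical. The title of the series speaks of a red Chlamydomonas reinhardtii, a green alga, that is rich in protoporphyrin IX and of an anti-diabetic effect in liver; the labels do not say which group received it.

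Haem is an iron-bearing porphyrin that serves as the prosthetic group of cytochromes P450, catalase and the respiratory chain. Its synthesis starts in the mitochondrial matrix, where ALAS1 joins glycine to succinyl-CoA to give 5-aminolevulinate; it goes on in the cytosol through enzymes that include ALAD, UROS and UROD, and returns to the mitochondrion for CPOX, PPOX and FECH. ALAS1 is the rate-limiting enzyme in liver and is held down by haem, while SLC25A38 brings in glycine and CLPX acts on ALAS both as an activating unfoldase and, with the protease CLPP, in haem-dependent turnover. Protoporphyrin IX is the product of PPOX and the substrate into which FECH inserts iron.

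Libraries held 13430122 to 17038017 counts. Genes of the mitochondrial genome took 22.5% to 37.6% of the counts in DMH, 18.8% to 33.7% in DM and 7.88% to 23.5% in CTL, with the lowest library of DMH below the highest of CTL. Summed levels of 8 hepatocyte markers were 29450 to 43730 CPM, the counts scaled to a common plain library total, in DMH, 37060 to 47690 CPM in DM and 42700 to 62160 CPM in CTL. Retinas are named in the protocol for RNA extraction, and of 6 retina markers Prph2 and Crx were at 0 in all libraries, with sums of 9.95 to 25.5 CPM in DMH, 2.99 to 22.9 CPM in DM and 13.8 to 54.2 CPM in CTL. Replicate libraries differed from each other far beyond counting noise, with 39.5 to 432 as chi-square over its degrees of freedom. In these tissue samples fewer cells of a type and less RNA per cell cannot be told apart.

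Between DMH and CTL the pathway genes moved in both directions. Uros, Ppox and Slc25a38 rose 2.71-fold, 1.79-fold and 1.81-fold in DMH, and Clpx fell to 0.432 of its CTL level. These 4 of 9 members passed an edgeR quasi-likelihood test at an adjusted p under 0.05 over all tested genes, 3 of them higher and 1 lower, while 15.4% of all tested genes passed, 7.25% higher and 8.15% lower. At an unadjusted p under 0.05 there were 5 of 9 members, Alas1 being the fifth, against 33.0% of all tested genes. Values were positive for 5 of 9 members, against 49.4% of all tested genes, and the median log2 fold change was 0.18 over the members and -0.01 over all tested genes. Beside these calls, 10 markers of Kupffer cells, the resident liver macrophages, summed to 130 to 485 CPM in DMH, 76.7 to 207 CPM in DM and 400 to 889 CPM in CTL, with negative values for 10 of 10 in DMH against CTL, 1 of them called. The 6 neutrophil markers summed to 1.42 to 14.1 CPM in DMH, 2.24 to 6.33 CPM in DM and 7.79 to 313 CPM in CTL, and the 3 of them that could be tested had negative values with an unadjusted p under 0.05. The 6 markers of sinusoidal endothelium summed to 67.5 to 125 CPM in DMH, 64.4 to 107 CPM in DM and 79.7 to 172 CPM in CTL, with negative values for 5 of 6, 3 of the 6 at an unadjusted p under 0.05. Of the 8 hepatocyte markers 8 had negative values (median -0.59), and Tat, which encodes tyrosine aminotransferase, was called (-1.87, edgeR adjusted p = 0.0134). Stellate cell markers summed to 70.9 to 176 CPM in DMH, 71.8 to 138 CPM in DM and 60.0 to 189 CPM in CTL, and cholangiocyte markers to 50.9 to 107 CPM in DMH, 50.7 to 91.2 CPM in DM and 34.0 to 82.1 CPM in CTL, with none called. No marker of these 6 lists was at 0 in all libraries, and their part in the member values was not tested. The mitochondrial share given above also moved with the groups. With that percentage as a covariate no gene of the table was called, 1632 had an unadjusted p under 0.05, and the log2 fold changes of Ppox, Uros, Slc25a38 and Clpx were 0.97, 1.22, 0.67 and -1.24, with edgeR adjusted p-values of 0.394 to 0.418. On plain library totals without TMM factors, a scaling chosen after the data were seen that moved the median of all genes to -0.17, Uros and Clpx passed while Ppox (0.69, adjusted p = 0.0671) and Slc25a38 (0.70, 0.0731) did not. By limma on log2(FPKM + 1), a scale that understates changes of low genes, Uros and Clpx passed as well. Ppox (0.55, adjusted p = 0.055) and Slc25a38 (0.60, 0.064) did not. On log2(FPKM + 0.1) limma again passed Uros and Clpx, and not Ppox (0.68, adjusted p = 0.0594) or Slc25a38 (0.67, 0.0713).

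**Figure D1:**
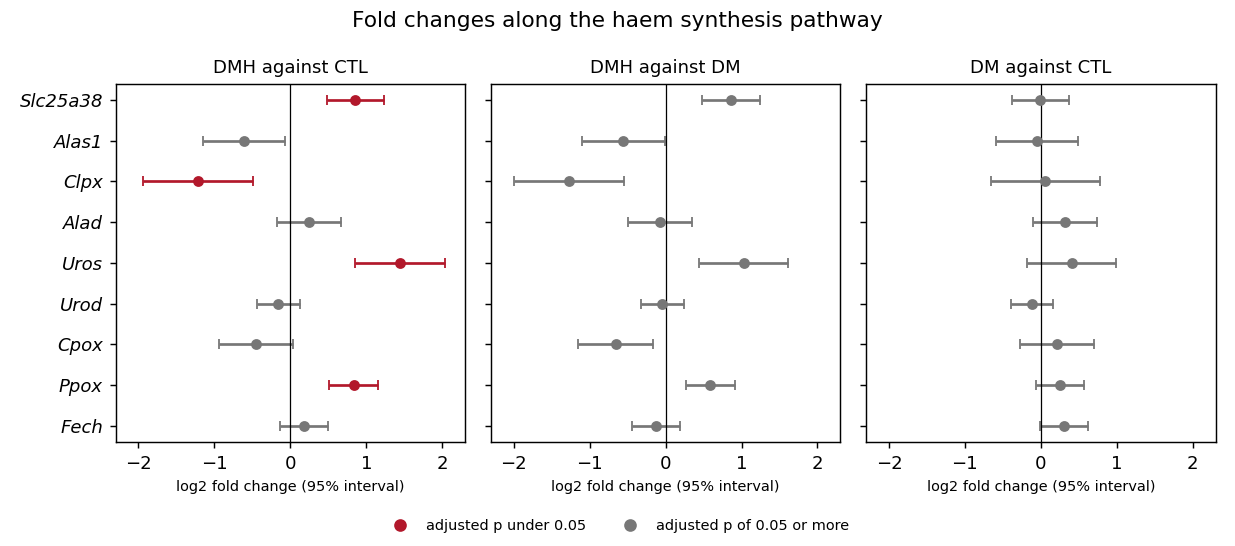
Log2 fold change of each member in the 3 comparisons, with 95% intervals from the edgeR fit of all 12 libraries, in pathway order from top to bottom. In DMH against CTL Uros, Ppox and Slc25a38 lie to the right of 0 and Clpx to the left with an adjusted p under 0.05 (red), while no member passed in DMH against DM or DM against CTL (grey).

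Slc25a38, the carrier that supplies glycine for the first step (ENSMUSG00000032519, GRCm38 chromosome 9, 120110374 to 120124504, plus strand), stood at 39.9, 43.2, 42.5 and 28.3 CPM in DMH1 to DMH4, at 22.7, 18.6, 18.0 and 25.4 CPM in DM1 to DM4, and at 20.7, 18.8, 22.2 and 23.5 CPM in CTL1 to CTL4. These member levels are CPM scaled with TMM factors. All 4 DMH libraries lay above all 8 others, DMH4 least so. The log2 fold change against CTL was 0.85 ± 0.17 (SE, edgeR adjusted p = 0.0135). Against DM it was 0.86 ± 0.17 with an unadjusted p of 0.000292 and an adjusted p of 0.106; without DMH4 it was 1.01 (edgeR adjusted p = 0.0367).

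Alas1, the rate-limiting enzyme (ENSMUSG00000032786, chromosome 9, 106233455 to 106248654, minus strand), stood at 117, 111, 124 and 223 CPM in DMH, at 260, 191, 226 and 167 CPM in DM and at 237, 170, 197 and 274 CPM in CTL. DMH1, DMH2 and DMH3 were the lowest 3 of the 12 libraries, whereas DMH4 lay within the DM and CTL ranges. The log2 fold change was -0.61 ± 0.25 against CTL (edgeR adjusted p = 0.11) and -0.56 ± 0.25 against DM (adjusted p = 0.232), and neither passed. Without DMH4 the value against CTL was -0.87 (adjusted p = 0.0171).

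Clpx, the mitochondrial unfoldase that acts on ALAS (ENSMUSG00000015357, chromosome 9, 65294260 to 65330658, plus strand), stood at 42.9, 57.4, 42.1 and 53.6 CPM in DMH, at 105, 127, 60.6 and 181 CPM in DM and at 72.5, 180, 84.7 and 117 CPM in CTL. Every DMH library lay below every other library, the nearest being DM3. Within DM the highest library was 2.99 times the lowest and within CTL 2.48 times, against 1.36 times within DMH. Clpx fell by 1.21 ± 0.34 on the log2 scale against CTL (SE, edgeR adjusted p = 0.0325), and its value against DM was -1.27 ± 0.34 (adjusted p = 0.115). The call against CTL ended without CTL2 (-0.87, edgeR adjusted p = 0.108), CTL4, DMH1, DMH2 or DMH3 (0.0539 to 0.0887), and in a fit of the 8 DMH and CTL libraries alone (-1.17, 0.0518).

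Alad, which condenses 5-aminolevulinate to porphobilinogen in the cytosol (ENSMUSG00000028393, chromosome 4, 62509169 to 62519918, minus strand), stood at 191, 160, 123 and 167 CPM in DMH, at 157, 172, 171 and 176 CPM in DM and at 101, 115, 148 and 178 CPM in CTL. The groups overlapped in each comparison. Its log2 fold change was 0.24 ± 0.19 in DMH against CTL (edgeR adjusted p = 0.417) and 0.32 ± 0.20 in DM against CTL (adjusted p = 0.406). In DMH against CTL the value was -0.09 with the mitochondrial covariate.

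Uros, which closes the linear tetrapyrrole to uroporphyrinogen III (ENSMUSG00000030979, chromosome 7, 133686243 to 133710072, minus strand), stood at 40.4, 37.6, 40.0 and 16.5 CPM in DMH, at 14.0, 17.1, 16.6 and 18.1 CPM in DM and at 16.9, 9.15, 12.2 and 11.3 CPM in CTL. DMH1, DMH2 and DMH3 lay above the highest of the 8 DM and CTL libraries, while DMH4 lay within the DM range and below CTL1. The levels rested on 251 to 711 counts per library in DMH, 207 to 284 in DM and 178 to 265 in CTL. Uros rose by 1.44 ± 0.27 on the log2 scale against CTL (SE, edgeR adjusted p = 0.012). Against DM the value was 1.03 ± 0.27 (adjusted p = 0.115), and 1.28 without DMH4 (adjusted p = 0.0367). The locus of Uros overlaps that of Bccip on the other strand, but the 2 share no exonic base in GENCODE M21, and Bccip gave 0.01 in DMH against CTL.

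Urod, the decarboxylase that makes coproporphyrinogen III (ENSMUSG00000028684, chromosome 4, 116989965 to 116994413, minus strand), stood at 54.5, 53.7, 45.2 and 55.3 CPM in DMH, at 55.8, 49.0, 55.4 and 54.6 CPM in DM and at 53.7, 59.0, 65.3 and 54.5 CPM in CTL. The groups overlapped, and DMH3 was the lowest library. Its log2 fold change against CTL was -0.16 ± 0.13 in DMH, with a 95% interval of -0.44 to 0.12, and -0.11 ± 0.13 in DM.

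Cpox, the oxidase that turns coproporphyrinogen III into protoporphyrinogen IX (ENSMUSG00000022742, chromosome 16, 58670292 to 58717636, plus strand), stood at 60.6, 69.3, 59.9 and 91.1 CPM in DMH, at 109, 121, 78.7 and 134 CPM in DM and at 64.0, 105, 98.3 and 117 CPM in CTL. DMH4 was the highest DMH library, CTL1 lay within the range of DMH1 to DMH3, and DM3 lay below DMH4. The log2 fold change was -0.45 ± 0.23 against CTL (edgeR adjusted p = 0.184) and -0.66 ± 0.23 against DM (adjusted p = 0.151). Neither passed.

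Ppox, which oxidises protoporphyrinogen IX to protoporphyrin IX (ENSMUSG00000062729, chromosome 1, 171275990 to 171281186, minus strand), stood at 41.4, 46.4, 42.1 and 41.6 CPM in DMH, at 26.7, 28.4, 29.7 and 29.5 CPM in DM and at 31.1, 20.5, 22.1 and 22.3 CPM in CTL. All DMH libraries, DMH4 included, lay above all DM and CTL libraries, and the highest DMH library was 1.12 times the lowest. Ppox rose by 0.84 ± 0.15 on the log2 scale against CTL (SE, edgeR adjusted p = 0.0118). Against DM the value was 0.59 ± 0.15 with an unadjusted p of 0.00175 and an adjusted p of 0.115. Exons of Ppox share 791 bases with B4galt3 on the other strand, and whether the counting used strand is not given, so the Ppox counts are uncertain. B4galt3 averaged 6.15 CPM beside 31.7 CPM for Ppox and stood at 0.61 in DMH against CTL (adjusted p = 0.101).

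Fech, the ferrochelatase that completes haem (ENSMUSG00000024588, chromosome 18, 64456550 to 64489066, minus strand), stood at 63.0, 79.4, 72.0 and 62.2 CPM in DMH, at 84.7, 81.3, 73.6 and 61.9 CPM in DM and at 65.8, 60.0, 63.4 and 55.0 CPM in CTL. The groups overlapped in each comparison. The log2 fold change against CTL was 0.18 ± 0.15 in DMH, with a 95% interval of -0.14 to 0.50, and 0.30 ± 0.15 in DM (edgeR adjusted p = 0.285). Of the 9 members Fech had the smallest p of the DM comparison, 0.0589 unadjusted.

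**Figure D2:**
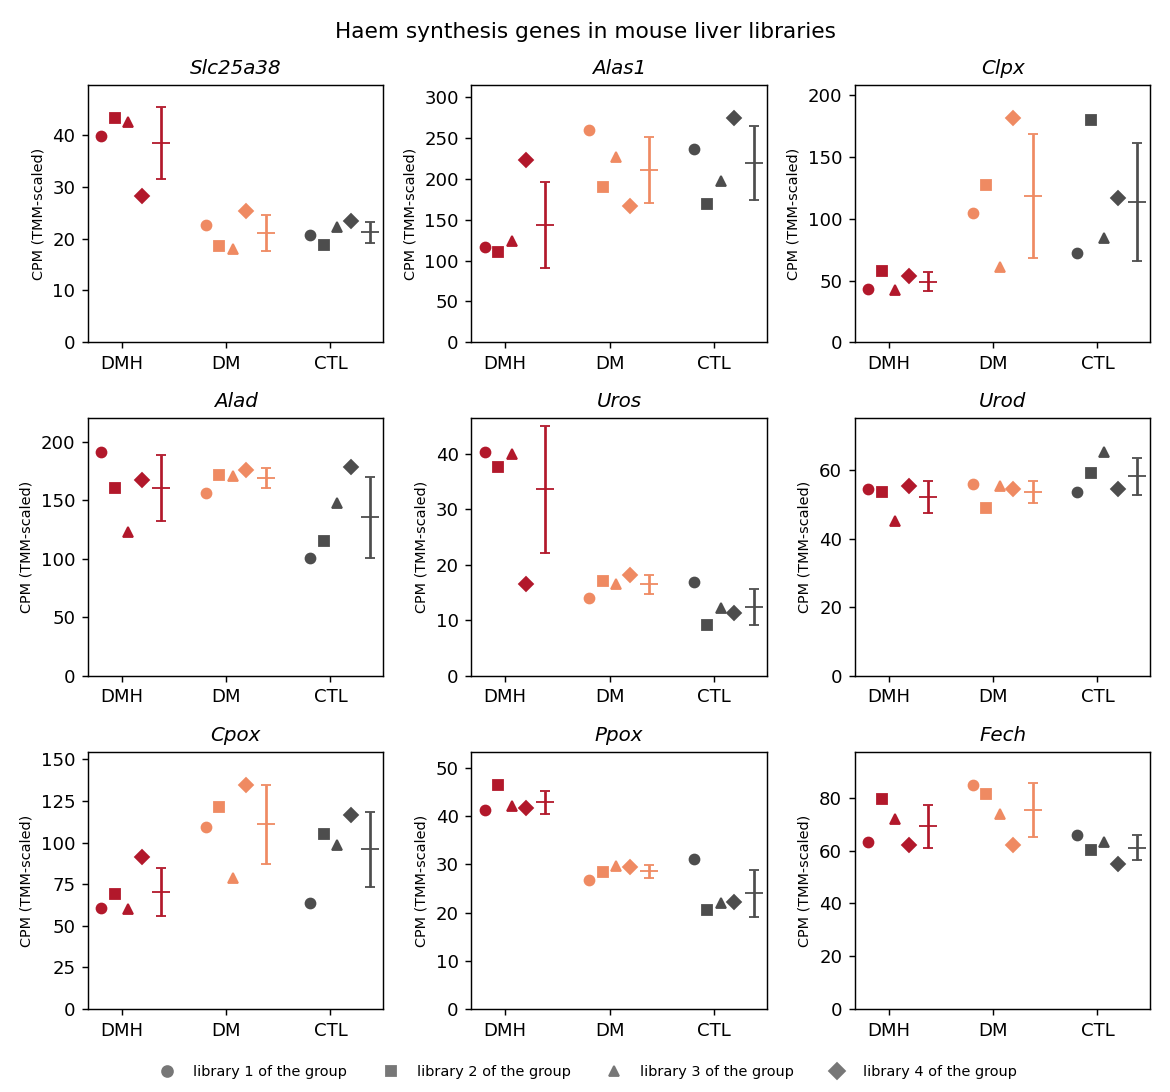
TMM-scaled CPM of each member by group, with 1 point per library, its shape giving the library number, and mean ± SD over 4 libraries beside the points. Ppox, Slc25a38 and Clpx separate DMH from DM and CTL in all 4 libraries, while the DMH library drawn as a diamond (DMH4) lies near the DM and CTL points in Alas1, Uros and Cpox.

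In DMH against DM none of the 9 members was called, while 0.0341% of all tested genes were, 0.0273% higher and 0.00683% lower. Values were positive for 3 of 9 members, against 52.5% of all tested genes. At an unadjusted p under 0.05 there were 6 of 9 members, with positive values for Uros, Ppox and Slc25a38 and negative values for Alas1, Cpox and Clpx; that level was reached by 20.6% of all tested genes. DESeq2 called 4 members, 3 higher and 1 lower, among 677 called of the 27935 genes it tested. Groups did not overlap for 2 members that were higher in DMH, Ppox and Slc25a38, and for 1 that was lower, Clpx; over all tested genes 5.67% were higher and 7.36% lower without overlap. The comparison of DMH with DM and that of DMH with CTL share the 4 DMH libraries, so they do not stand as separate evidence. In DMH against CTL groups did not overlap for the same 3 members, 2 higher and 1 lower, against 19.5% of all tested genes, 8.64% higher and 10.9% lower.

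In DM against CTL none of the 9 members was called, while 0.219% of all tested genes were, 0.15% higher and 0.0683% lower. Values were positive for 6 of 9 members, against 47.6% of all tested genes. None of the 9 had an unadjusted p under 0.05, which 18.8% of all tested genes had, and by DESeq2 none was called with 1 at an unadjusted p under 0.05. The groups overlapped for all 9, while 15.0% of all tested genes showed no overlap, 7.32% higher and 7.72% lower. The log2 fold changes ran from -0.11 for Urod to 0.41 ± 0.27 for Uros, with adjusted p-values of 0.285 to 0.988. For Slc25a38 the value was -0.01 ± 0.17, with a 95% interval of -0.38 to 0.37, and for Clpx 0.06 ± 0.33, with an interval of -0.65 to 0.78, which spans more than a change of 0.5 either way.

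The 4 DMH libraries were not alike across the pathway. DMH4 stood at 0.28 above the mean of all libraries on the log2 scale for Alas1, against -0.73 to -0.57 in DMH1 to DMH3, and at 0.03 for Cpox, against -0.57 to -0.36. For Uros it stood at -0.16, against 1.02 to 1.12 in the other 3. For Slc25a38 it stood at 0.14, against 0.64 to 0.75 in the other 3 DMH libraries. For Ppox it stood at 0.44 beside 0.43 to 0.59, and for Clpx at -0.63 beside -0.98 to -0.53, within the range of its group. DMH4 also had the lowest mitochondrial share of the 4, 22.5%, against 29.1% to 37.6%; the part of that share in these values was not tested.

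**Figure D3:**
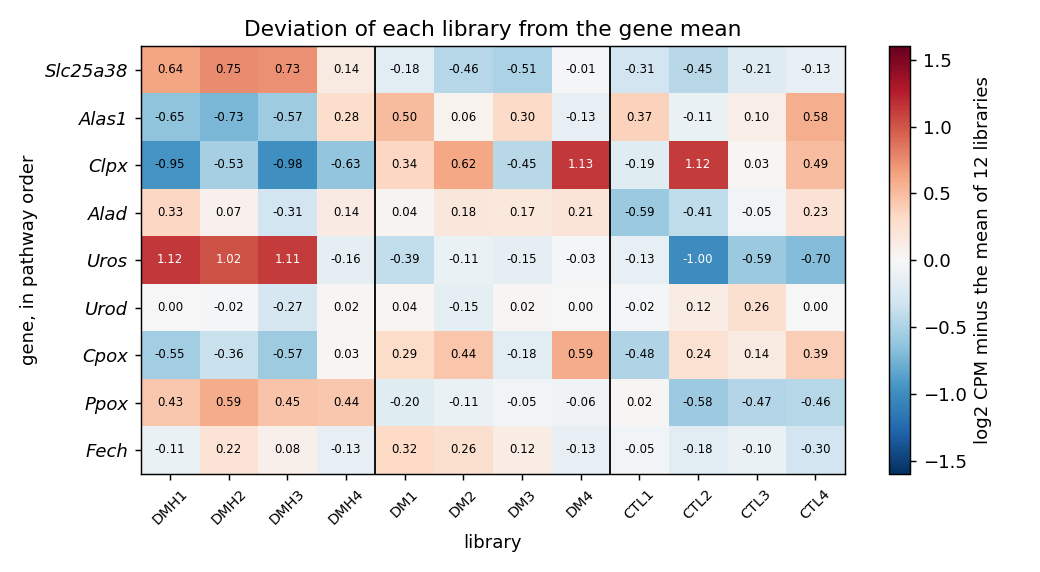
Heat map of log2 CPM minus the mean of the 12 libraries, with genes in pathway order as rows and libraries as columns in the order DMH, DM, CTL; red is above and blue below the gene mean. DMH1 to DMH3 show high Slc25a38, Uros and Ppox with low Alas1, Clpx and Cpox, and DMH4 shares high Ppox and low Clpx with them.

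Levels between genes were compared per length, on the deposited FPKM. The median over 12 libraries was highest for Alad at 75.5 FPKM, followed by Fech at 23.0, Alas1 at 18.7, Clpx at 16.1, Cpox at 11.3, Urod at 10.9, Slc25a38 at 6.15, Ppox at 3.66 and Uros at 2.67 FPKM. Alad exceeded Fech and Slc25a38 exceeded Ppox in 12 of 12 libraries. Neighbours changed places elsewhere: Alas1 exceeded Clpx in 8 of 12, Cpox exceeded Urod in 5 of 12 and Ppox exceeded Uros in 9 of 12, so these pairs are not apart beyond their spread. The lengths behind these values matter for the order. The length behind the FPKM of Ppox is 8353 bases, more than the 5197 bases of its locus. That of Urod is 5021 bases, also more than the 4449 bases of its locus. For every member except Fech the length exceeds the exonic bases in GENCODE M21, for Alas1 with 11162 against 6174 bases. The length of Fech is 2901 bases, against 13838 exonic bases in GENCODE M21, where the gene is longer than in the deposited table. In CPM per kilobase of M21 exons, Fech had a median of 4.82 beside 83.7 for Alad and 33.8 for Alas1. On that scale Fech was the lowest member, next to Uros at 4.83, and Urod (21.1) lay above Cpox (14.4). The place of Fech, and the order of Urod and Cpox, thus depend on the length used.

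Sequences before RefSeq transcription starts are shown for Ppox, Slc25a38 and Clpx, with windows of 30 bases for Uros and Alas1. They let genes with higher and lower values in DMH be read side by side. The windows of Uros and Alas1 lie inside the loci given above and were not checked for exonic bases. Promoter entries of RefSeq (GRCm38.p6) were used for 8 of the 9 members, and Fech was left out of this search. Words for 9 factors or boxes were searched on both strands of the 250 bases before each start (for Slc25a38 242 are shown, up to the first exonic base of GENCODE M21): GC box GGGCGG, NRF1 site GCGCA and GCGC with 1 base of any kind between them, NRF1 core CATGCGC (which can overlap the site), E-box CACGTG, cAMP response element TGACGTCA, CCAAT box CCAAT, ETS site CCGGAAG, nuclear receptor half-site AGGTCA and forkhead site GTAAACA. NRF1, nuclear respiratory factor 1, is a known activator of genes for mitochondrial proteins. Capitals mark the matches.
Ppox, chr1:171281187-171281436, minus strand: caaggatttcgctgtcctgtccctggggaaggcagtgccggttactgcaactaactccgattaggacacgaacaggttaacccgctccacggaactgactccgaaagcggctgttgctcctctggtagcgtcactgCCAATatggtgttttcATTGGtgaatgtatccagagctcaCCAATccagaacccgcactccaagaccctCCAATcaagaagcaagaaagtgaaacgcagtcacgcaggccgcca
Slc25a38, chr9:120110132-120110373, plus strand: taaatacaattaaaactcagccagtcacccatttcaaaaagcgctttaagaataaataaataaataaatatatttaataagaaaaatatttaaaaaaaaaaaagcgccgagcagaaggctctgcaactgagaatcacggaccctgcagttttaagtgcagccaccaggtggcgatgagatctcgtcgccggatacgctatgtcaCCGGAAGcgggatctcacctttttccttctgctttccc
Clpx, chr9:65294010-65294259, plus strand: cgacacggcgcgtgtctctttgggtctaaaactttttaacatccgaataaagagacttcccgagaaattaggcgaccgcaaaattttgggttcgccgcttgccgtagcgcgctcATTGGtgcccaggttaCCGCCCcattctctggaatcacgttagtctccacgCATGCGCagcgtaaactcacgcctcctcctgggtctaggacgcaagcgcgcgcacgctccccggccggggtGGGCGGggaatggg
Uros window on the NRF1 site, chr7:133709323-133709352, minus strand: cggtcacactGCGCCTGCGCgagtcccgcc
Alas1 window on the NRF1 site farther from the start, chr9:106247935-106247964, minus strand: gcttcggcgcGCGCGTGCGCgcggcaggcc
Alas1 window on the nearer NRF1 site, chr9:106247906-106247935, minus strand: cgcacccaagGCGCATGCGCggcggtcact
The NRF1 site was found before 1 of the RefSeq starts of Alas1, in 2 places, and before 1 start of Uros; the windows put only that site in capitals. Of all 32851 promoter entries 3.74% hold it. Ppox held the CCAAT box in 4 places (33.8% of all entries hold at least 1), Slc25a38 an ETS site (6.91%), and Clpx a CCAAT box, GC boxes (32.7%) and the NRF1 core (3.24%). The Alas1 entry with the NRF1 site held that core too, in 2 places. The Uros entry with the NRF1 site also held a GC box, an E-box (6.02%) and an ETS site, not put in capitals. Uros and Slc25a38 thus shared the ETS site, which an entry of Alad held too. No word was shared by all 3 higher members Uros, Ppox and Slc25a38, and Cpox held none of the words. A match is a description of letters and says nothing about binding.

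The genes whose log2 CPM was most like that of a member over the 12 libraries were found for each member among tested genes with a standard symbol. For Alas1 they were Cebpb (Pearson r = 0.92), which encodes a liver transcription factor, Borcs8 (0.91) and Zfp319 (0.90). For Fech they were Fcho2 (0.87), Mfn1 (0.86), which encodes a mitochondrial fusion protein, and Ptch1 (0.83). The single most like genes were Gnas for Alad (0.92), Edc4 for Uros (0.96), Mbd3 for Urod (0.89), Pnkd for Cpox (0.96), Trim11 for Ppox (0.96), Chd3 for Slc25a38 (0.96) and Rab21 for Clpx (0.92). These values describe 12 libraries in 3 groups, which differ in mitochondrial share, and the best of 14643 genes is high by selection. Among the members themselves Uros and Ppox (0.89), Cpox and Clpx (0.87) and Uros and Slc25a38 (0.87) were most alike, and Alas1 and Uros most opposed (-0.79).

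Alas2, the erythroid form of the first enzyme, averaged 36.2 CPM in DMH, 44.4 CPM in DM and 37.7 CPM in CTL, and it was not called in any comparison (edgeR adjusted p = 0.948 in DMH against CTL, with an unadjusted p of 0.908, and a log2 fold change of 0.23 with an adjusted p of 0.85 in DM against CTL). Haem synthesis is high in red cell precursors, and 11 erythroid markers summed to 146 to 1302 CPM in DMH, 140 to 1235 CPM in DM and 99.1 to 2619 CPM in CTL, with overlapping ranges and none of them at 0 in all libraries; their part in the member values was not tested.

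Of 13 mitochondrial partners of haem synthesis, 1 was higher and 3 lower in DMH than in CTL, while 7.25% of all tested genes were called higher and 8.15% lower; the median log2 fold change was -0.16 beside -0.01 for all tested genes. The same shares stand beside the counts of the other lists. The mitochondrial iron importer Slc25a28, mitoferrin 2, rose by 0.79 ± 0.22 on the log2 scale (edgeR adjusted p = 0.0342). The haem chaperone Pgrmc2 fell by 0.92 ± 0.17 (adjusted p = 0.012), the outer membrane protein Tspo, which binds porphyrins, fell by 1.10 ± 0.28 (0.0241), and Tmem14c, which is needed for porphyrin transport into mitochondria in mouse erythroid cells, fell by 0.62 ± 0.17 (0.0333). Clpp, the protease partner of Clpx, stood at -0.30 (adjusted p = 0.258) and Lonp1, another protease of ALAS1, at 0.20 (0.301); both were chosen after their values were seen. Of 6 genes listed for substrate supply (median -0.52) 0 were higher and 2 lower. They were Suclg1, a subunit of the enzyme that interconverts succinyl-CoA and succinate (-1.16, 0.0433), and the mitochondrial carrier Slc25a39 (-1.001, 0.0193). Whether Slc25a39 carries a substrate of haem synthesis was not tested. Of 4 genes of haem breakdown (median -0.55) 0 were higher and 1 lower, the constitutive haem oxygenase Hmox2 (-1.14, 0.0155), whose exons share 892 bases with Cdip1; Cdip1 averaged 155 CPM beside 23.1 CPM for Hmox2, so its counts are uncertain.

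Of 11 genes known to regulate Alas1 transcription or haem-responsive genes, 4 were higher and 1 lower in DMH than in CTL, beside 7.25% and 8.15% of all tested genes, with a median of 0.11. Nr1d1 and Nr1d2, which encode the haem-binding circadian repressors REV-ERB alpha and beta, rose by 1.23 ± 0.34 and 1.06 ± 0.28 (edgeR adjusted p = 0.033 and 0.0291). Nr1i3, the xenobiotic receptor CAR, which can raise Alas1, rose by 1.10 ± 0.21 (0.012). Bach1, a repressor that senses haem, rose by 0.62 ± 0.19 (0.0425), and Foxo1, which activates Alas1 with PGC-1 alpha, fell by 0.81 ± 0.25 (0.0475). Ppargc1a itself stood at 0.11 (0.918), chosen after its value was seen. Exons of Nr1d1 share 263 bases with Thra and those of Nr1i3 3304 bases with Tomm40l, which averaged 25.8 and 17.9 CPM beside 68.9 and 572 CPM, and those of Tspo share 53 bases with Mcat.

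None of the 3 genes of haem a and haem c synthesis was called, and the smallest p was that of Hccs in DMH against CTL (0.15, edgeR adjusted p = 0.692) and in DM against CTL (0.52, 0.248), and that of Cox15 in DMH against DM (-0.33, 0.351). None was called of 10 genes listed for haem-using liver enzymes. That list includes Por, which encodes the reductase of cytochromes P450 and itself holds no haem. The smallest p of the list was that of Cyp3a11 in DMH against CTL (-1.37, 0.0519). It was that of Cyb5a in DMH against DM (-1.09, 0.115) and of Cyp1a2 in DM against CTL (0.85, 0.103). The medians in DMH against CTL were -0.01 and -0.27, with 0 of 3 and 4 of 10 genes at an unadjusted p under 0.05, beside 33.0% of all tested genes. By edgeR no gene of these lists was called in DM against CTL or DMH against DM. An unadjusted p under 0.05 was reached by 18.8% and 20.6% of all tested genes in these comparisons. It was reached by 1 and 7 of the 13 partners, 3 and 1 of the 11 regulators and 1 and 3 of the 6 genes listed for supply. Of the 4 genes of haem breakdown 1 and 1 reached it, and of the 3 of haem a and haem c synthesis 1 and 0. Of the 10 genes of the haem-using list 3 and 5 reached it. Of the 12 listed genes called in DMH against CTL, Pgrmc2 and Nr1i3 were called with each of the 12 libraries left out in turn. The call of Hmox2 ended without CTL2 (adjusted p = 0.051), that of Slc25a39 without CTL2 or DMH3 (up to 0.0609) and that of Nr1d1 without CTL1, CTL2, DMH2 or DMH3 (up to 0.0808). Slc25a28 lost its call without CTL2, CTL3, DMH1, DMH2 or DMH3, Tspo without CTL1, CTL2, CTL3, DMH1 or DMH3, and Nr1d2 without CTL2, CTL3, CTL4, DMH2 or DMH3 (up to 0.0825). Tmem14c lost its call without any of CTL1 to CTL3, DM3 or DMH1 to DMH3, and Bach1 without CTL2 to CTL4, DM2 or DMH1 to DMH3. Suclg1 lost its call without CTL1 to CTL3, DM2 to DM4, DMH1 or DMH3, and Foxo1 without any single library other than CTL4 or DMH4 (up to 0.146). None of the 12 was called with the mitochondrial covariate (0.394 to 0.687). On plain library totals the calls of Slc25a28, Tmem14c, Foxo1, Nr1d1, Nr1d2, Bach1 and Suclg1 ended (0.0598 to 0.254), and by limma on log2(FPKM + 1) those of Slc25a28, Tmem14c, Foxo1, Nr1d2 and Bach1 (0.0787 to 0.257).

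**Figure D4:**
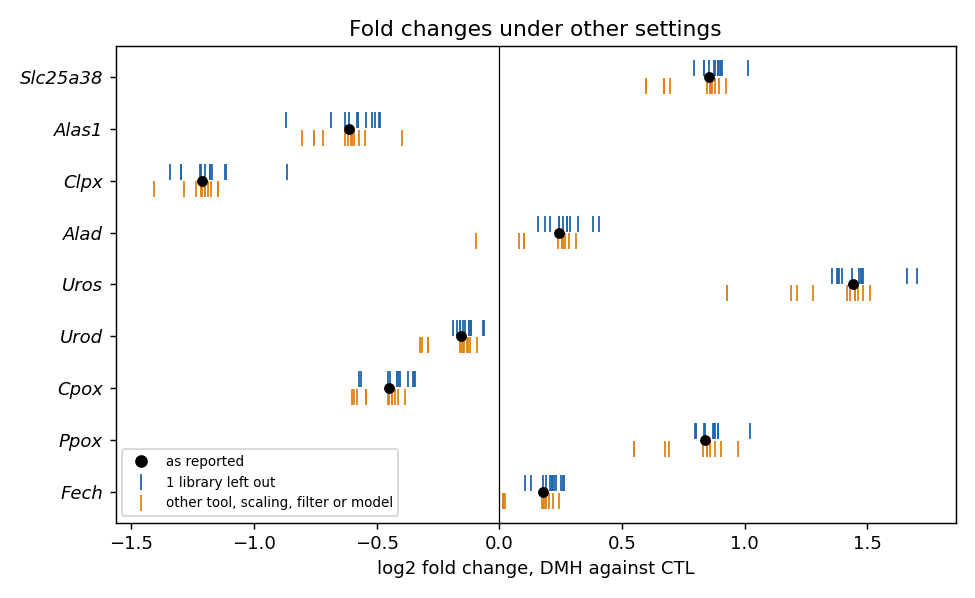
Log2 fold change of each member in DMH against CTL as reported (black point), with each of the 12 libraries left out in turn (blue ticks) and under the other tools, scalings, filters and models (orange ticks). Uros, Ppox and Slc25a38 stay right of 0 and Clpx, Cpox, Alas1 and Urod left of 0 under all of these settings, while Alad has a tick at -0.09.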

How the data were processed

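RNA of 12 mouse liver libraries was sequenced, 4 each of DMH, DM and CTL, grouped by the labels. The authors deposited 1 table of raw counts and FPKM per gene on GRCm38 coordinates. Per the series' design text, the authors checked reads with FastQC 0.11.8, trimmed them with Trimmomatic 0.36, mapped them with HISAT2 2.1.0 and counted genes with StringTie; its strand setting is not stated there. The submitters' processing notes also name DESeq2. The deposited FPKM equal the count over 1 fixed length per gene and the plain library total within 0.068%, although the same text names TMM. The deposited counts were tested with edgeR 4.0.16 (R 4.3.3): TMM factors, filterByExpr (minimum count 10, total 15), robust quasi-likelihood F tests over all 12 libraries with 9 residual degrees of freedom, and Benjamini-Hochberg adjustment over 14643 genes, calling a gene at an adjusted p under 0.05. The standard error is the log2 fold change over the root of F, with 95% intervals from it. Counting error and the spread of 4 libraries a group limit the precision. The fitting script was tested on simulated data.

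All 9 members are named. Of the other lists, a gene is named if called in any comparison, or, where none of its list is, the gene with the smallest p in each comparison. One gene this rule would name is not reported here. The members and lists were chosen with earlier results of these data known. Alternatives were DESeq2 1.42.0, limma 3.58.1 on log2(FPKM + 1) and log2(FPKM + 0.1), other scalings and filters, the 8 libraries of each pair of groups, a replicate block, the mitochondrial percentage as a covariate, leaving out mitochondrial genes, each library left out, and a rule of fold 2 with an unadjusted p. The main fit used no pairing by library number. Deviations of same-numbered libraries correlated at -0.129 to 0.112, which cannot settle whether the numbers pair samples.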

Additional observations from a re-analysis of the deposited data

Results flagged for a closer look

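Dixon's test on the CPM of each member in each group of 4 libraries (27 groups) set 4 libraries apart from the other 3 of their group, all within DMH. In a single group chance does so about 1 time in 20. The 27 groups reuse the same libraries and hold correlated genes, such as Alas1 and Uros (r = -0.79). That rate therefore cannot tell whether 4 is more than chance gives. For Alas1 DMH4 stood at 223 CPM, against 111 to 124 CPM in the other 3 libraries, and for Uros DMH4 stood at 16.5 CPM, against 37.6 to 40.4 CPM. For Urod DMH3 stood at 45.2 CPM, against 53.7 to 55.3 CPM, and for Ppox DMH2 stood at 46.4 CPM, against 41.4 to 42.1 CPM.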

How the results depend on the processing

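Of 648 values (27 member results under 24 alternatives), 597 kept their direction and side of the threshold, 20 lost the threshold, 7 gained it and 24 turned sign. Only the 4 results called as reported, all in DMH against CTL with 24 alternatives each, could lose the threshold. All 20 losses therefore fell on these 4, and the 597 mostly count results that were not called to begin with. In DMH against CTL 2255 genes and 4 members were called (1062 higher, 1193 lower): limma on log2(FPKM + 1) gave 1122 genes (281 higher, 841 lower) and 2 members, log2(FPKM + 0.1) 926 (238 higher, 688 lower) and 2, log2(FPKM + 1) without a filter 2 and 0, the 8 libraries alone 629 (395 higher, 234 lower), the replicate block 1001 and 4 members, the mitochondrial covariate 0 and 0, plain totals (chosen after the data were seen) 743 (231 higher, 512 lower) and 2, and fold 2 with an unadjusted p 2 members. Leaving out 1 library gave 623 to 2967 genes and 3 to 5 members. In DMH against DM (5 genes, 0 members) the strict filter gave 13 genes, DESeq2 677 and 4 members, the block 1, the covariate 2, plain totals 3, fold 2 749 and 2 members, and leaving out 1 library 1 to 155 genes and 0 to 2 members, the 155 and 2 (Uros, Slc25a38) without DMH4. In DM against CTL (32 genes, 22 higher; 0 members) no filter gave 65, DESeq2 870, unfiltered limma 9, the 8 libraries 367, the block 1, the covariate 3, plain totals 16 (6 higher), fold 2 1154, and leaving out 1 library 7 to 248, always with 0 members; limma on log2(FPKM + 1) gave 6 higher and 30 lower.

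Signs turned for 6 member results, with reported values of up to 0.245 in size. In DM against CTL, Alas1 was 0.077 with the covariate and -0.158 to 0.0703 without 1 library (positive without CTL4 or DM4); Slc25a38 was 0.0044 by RLE, 0.00079 by DESeq2, 0.0089 with 8 libraries and -0.107 to 0.0746 without 1 library; Clpx was -0.08996 by limma on log2(FPKM + 1) with or without a filter, -0.0923 on log2(FPKM + 0.1), -0.142 on plain totals and -0.219 to 0.387 without 1 library. In DMH against DM, Alad ranged from -0.143 to 0.0511 and Urod from -0.0585 to 0.0379 without 1 library, both positive without DMH3, and Urod was 0.0269 with the strict filter. Alad in DMH against CTL was -0.0941 with the covariate, against 0.245 as reported. The cause was not tested. Of 12 same-numbered pairs of libraries 1 correlated above 0.1, which cannot settle whether the numbers link samples. The replicate block changed the call of no member. Low counts limit Uros most, with 178 counts in its lowest library.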
